A study of Mus musculus with 12 samples.

Results

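The genes described here encode secreted proteins of blood coagulation, its inhibitors, fibrinolysis and the complement system. They were taken from a list of 38 gene symbols under the condition of at least 10 unstranded counts in at least 3 libraries. All 38 met it, among 13815 genes of the series that do so and 55487 gene identifiers listed. C5 is listed under the symbol Hc in the annotation. Messenger RNA was sequenced from cultured primary mouse hepatocytes (the parenchymal cells of the liver), in 4 groups of 3 libraries. Control cells received neither scavenger nor FAC, the second group received FAC (named by these letters alone in the labels), and the other groups were pretreated on the second day of culture and then given FAC. Pretreatment was with liproxstatin-1 (Lip-1+FAC), which scavenges reactive oxygen species (ROS) on lipids, or with Mito-TEMPO (MT+FAC), which scavenges them in mitochondria. There was no group with a scavenger alone, so that every pretreated library also carries FAC. The labels give no strain, sex or age, and do not say whether replicates were separate cultures or animals. P-values therefore measure the spread between these libraries, which may be technical.

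Hepatocytes make most of the clotting and complement proteins of plasma and secrete them, largely as inactive precursors. In coagulation, a chain of proteases and cofactors ends in thrombin, which turns fibrinogen into fibrin. Antithrombin, heparin cofactor II and the protein C and protein S pair restrain the chain, and plasmin dissolves the clot. Complement starts on antibodies, on sugars recognised by lectins or by slow spontaneous activation, converges on C3, and ends in the membrane attack complex built from the terminal components. The measurements below are of messenger RNA in the cells, not of secreted protein. In such bulk libraries, fewer expressing cells and less RNA per cell cannot be told apart.

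Libraries held 22991598 to 31683376 gene-assigned counts, apart from FAC replicate 2 with 52529278, whose file is marked as combined. The share of listed reads that were assigned to a gene was 75.8% to 77.8% in FAC, 78.0% to 79.8% in Control, and 80.4% to 81.2% in the pretreated libraries, and its part in the differences below was not tested. The 15 hepatocyte markers summed to between 52318 and 61353 CPM (counts scaled to library size) in every library, of which Trf (transferrin) alone made 33541 to 44589 CPM in group means, with Alb at 8338 CPM or more on average in each group. Markers of lymphocytes and neutrophils summed to at most 0.432 CPM, and those of red cells to at most 0.0574 CPM.

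Levels between genes were compared as RPKM, which scale counts to exon length and library size. The 38 genes spanned from a mean of 1100 RPKM for Vtn over all libraries to 0.126 RPKM for Klkb1, the prekallikrein of the contact pathway. Vtn encodes vitronectin, an adhesive plasma glycoprotein that also binds the terminal complement complex. Below it stood C3, the central complement component, at 781 RPKM, F2 (prothrombin) at 583 RPKM, Fgb (the beta chain of fibrinogen) at 561 RPKM and Kng1 (kininogen) at 477 RPKM. Serping1, encoding the C1 inhibitor, led the complement inhibitors at 404 RPKM, and C8b led the terminal components at 82.7 RPKM. Among the genes with the lowest values were Serpind1 (heparin cofactor II, a thrombin inhibitor) at 7.52 RPKM, F5 (the cofactor of factor X) at 5.86 RPKM, Cfb at 1.75 RPKM and C2 at 1.60 RPKM. These last encode the proteases of the alternative and of the classical and lectin pathway convertases. Klkb1 rested on 9 to 31 counts per library, so that its differences were poorly resolved. The values of Cfb, C2, Klkb1, Masp2 and Serpinc1 understate their levels. This is because much of their exon length is shared with another gene model on either strand. The unstranded gene counts leave out reads that fall on more than 1 gene.

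**Figure D1:**
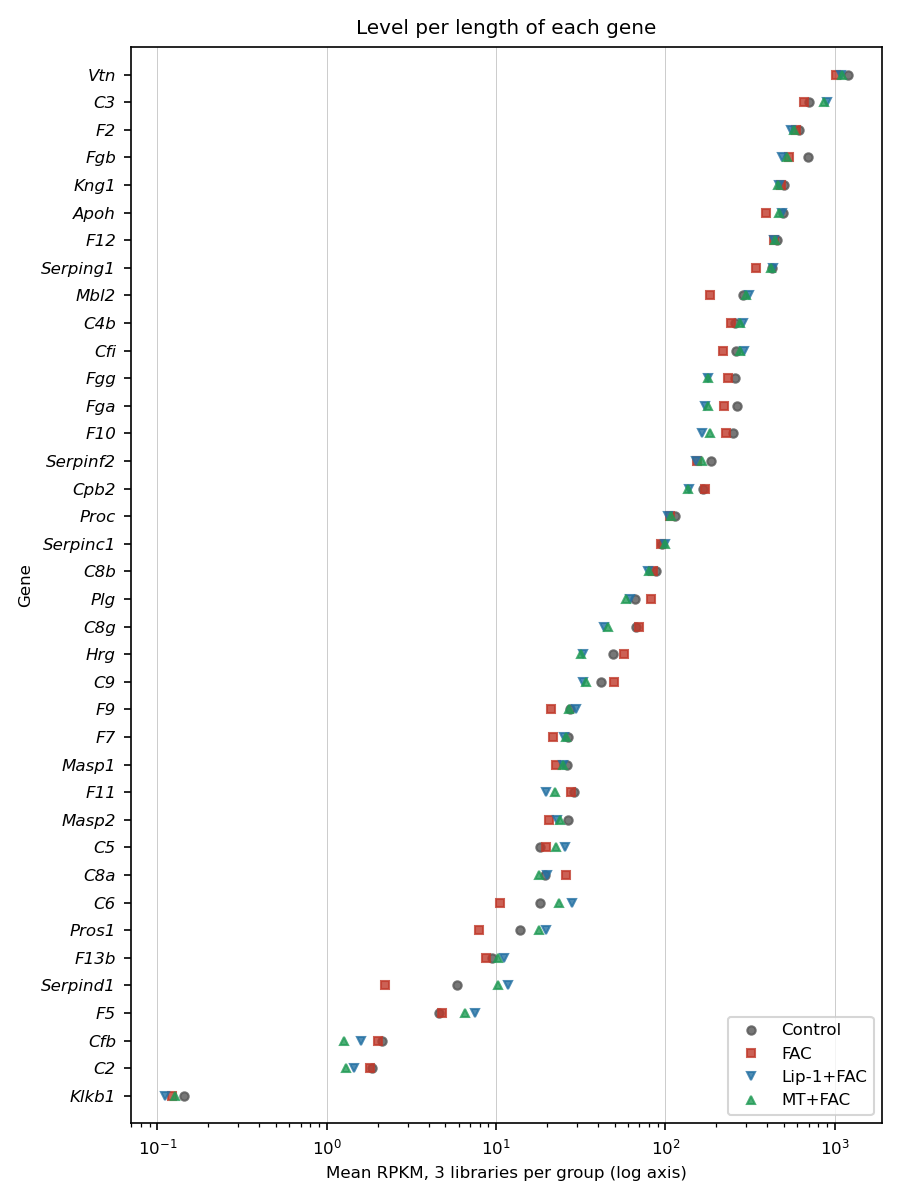
Mean level per length of each of the 38 genes in the 4 groups (RPKM, log axis, mean of 3 libraries per group), ordered by the mean over all libraries. Vtn is at the top at 1100 RPKM and Klkb1 at the bottom at 0.126 RPKM, and the groups lie close together for most genes.

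Some genes share exons with neighbours, and the counts do not use strand. Exonic bases shared with an overlapping model made up 79.5% of Cfb, 46.9% of C2 and 43.2% of Klkb1, where the overlapping same-strand models Gm20547 and Gm45753 held 0 counts in every library. On the opposite strand the overlap was 54.9% for Masp2 (with Tardbp) and 34.4% for Serpinc1 (with Zbtb37). C4b is 96.0% identical to C4a over 5378 bases and Kng1 is 97.5% identical to Kng2 over 280 bases. Levels of these genes are uncertain to that extent.

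FAC lowered more of the genes than it raised. Against Control, 3 of the 38 were higher in FAC and 15 were lower at an adjusted p under 0.05 (edgeR, adjusted over all 13535 genes tested), whereas 17.5% of all genes tested were called higher and 19.1% lower. The median log2 fold change was -0.12 over the 38 genes and -0.01 over all genes tested. Over the 38 it was -0.18 to -0.13 when a library was left out, farthest without replicate 2 of Control. Clotting and fibrinolysis genes gave 1 rise and 9 falls among 23, and complement genes 2 rises and 6 falls among 15. In 23 of the 38 the FAC and Control libraries did not overlap, as they did not for 46.2% of all genes tested.

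In Lip-1+FAC against FAC, 13 of the 38 were higher and 11 lower, beside 20.7% and 19.2% of all genes tested. In MT+FAC against FAC, 12 were higher and 10 lower, beside 21.2% and 19.7%. The median log2 fold changes were -0.01 and 0.08, neither of them stable. The former turned positive with offsets for GC content and length (0.071) and with the filter on mean CPM, which leaves out Klkb1 and Cfb. It also did so when replicate 2 or 3 of FAC or replicate 2 of Lip-1+FAC was left out (up to 0.0668, reached without the last of these). The latter dropped by more than 1.5 times without replicate 1 of FAC or of MT+FAC, to 0.00765 in the second case. Groups did not overlap for 26 of the 38 in the former and 27 in the latter comparison, beside 50.8% and 52.9% of all genes tested. These comparisons and that of FAC with Control use the same FAC libraries, so that their values are not independent of each other. They are given side by side below, gene by gene.

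**Figure D2:**
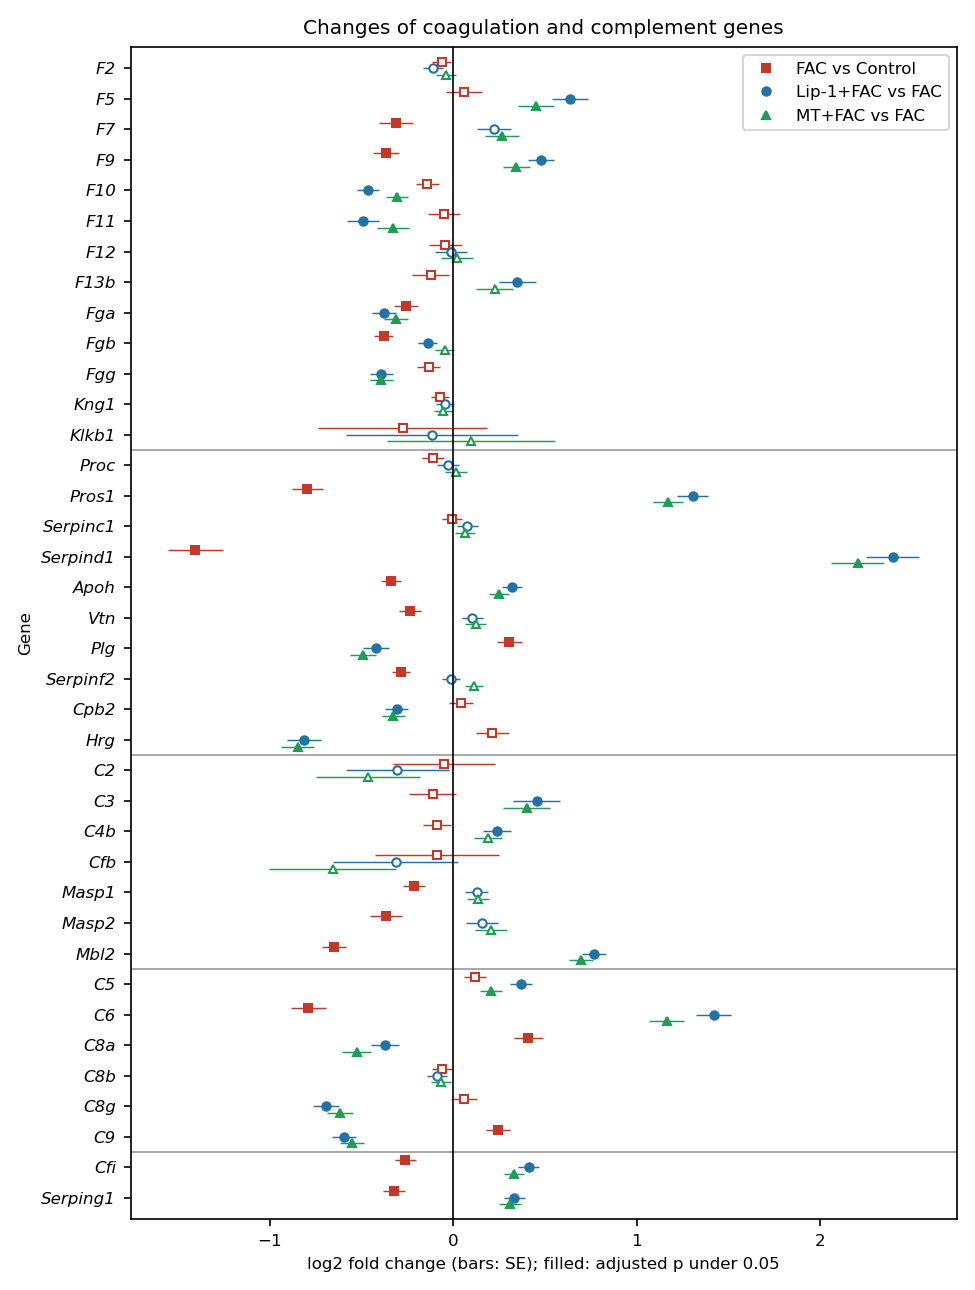
Log2 fold change of each gene in FAC against Control (red squares), Lip-1+FAC against FAC (blue circles) and MT+FAC against FAC (green triangles), with bars for the SE and filled marks for an adjusted p under 0.05. Serpind1 moves farthest, from -1.40 to 2.39, and the blue and green marks lie side by side for most genes.

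Serpind1, of the inhibitors of coagulation, had the largest fold change of the 38 genes in each of the 3 comparisons. It measured 11.8, 14.2 and 12.7 CPM in Control, 4.82, 5.51 and 4.12 in FAC, 28.4, 22.6 and 26.0 in Lip-1+FAC, and 26.7, 18.9 and 21.9 in MT+FAC. FAC libraries were the lowest without overlap, and both pretreated groups lay above every Control library. Its log2 fold change was -1.40 in FAC against Control (SE 0.148, edgeR adjusted p = 1.12e-06), 2.39 in Lip-1+FAC against FAC (SE 0.146, adjusted p = 2.34e-09) and 2.20 in MT+FAC against FAC (SE 0.146, adjusted p = 9.4e-09), these last being rises of 5.26-fold and 4.61-fold. Pros1, encoding protein S, the cofactor of activated protein C, measured 55.5, 56.1 and 57.3 CPM in Control, 32.1, 35.3 and 29.7 in FAC, 84.5, 77.3 and 79.0 in Lip-1+FAC, and 79.9, 63.7 and 75.6 in MT+FAC. The order of groups was as for Serpind1, again with no overlap of FAC or Control with any other group. Pros1 fell by 0.80 on the log2 scale in FAC (SE 0.0844, adjusted p = 1.16e-06) and rose by 1.31 in Lip-1+FAC (SE 0.0843, adjusted p = 3.7e-09) and 1.17 in MT+FAC (SE 0.0841, adjusted p = 2.41e-08) against FAC. Proc (protein C) and Serpinc1 (antithrombin), the other main inhibitors of the class, were called in none of these 3 comparisons, with log2 fold changes between -0.11 and 0.01 for Proc and between -0.01 and 0.08 for Serpinc1. With offsets for GC content and length, Proc was called higher with Lip-1 (0.20) and with MT (0.16) against FAC.

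Apoh, encoding a phospholipid-binding plasma glycoprotein, was likewise lowest in FAC but not above Control in the pretreated groups, with means of 792 CPM in Control, 626 in FAC, 782 with Lip-1 and 744 with MT. Its log2 fold changes were -0.34 in FAC against Control, 0.32 with Lip-1 and 0.25 with MT against FAC. Vtn measured 2398, 2455 and 2416 CPM in Control, 2159, 2109 and 1904 in FAC, 2217, 2114 and 2311 in Lip-1+FAC, and 2263, 2328 and 2129.9 in MT+FAC. The FAC libraries all lay below Control (-0.24, SE 0.0586, edgeR adjusted p = 0.00411) but overlapped with both pretreated groups, where Vtn was not called against FAC (0.11 and 0.12). With offsets for GC content and length it was called higher with Lip-1 (0.27) and with MT (0.21). Serpinf2, the main plasmin inhibitor, fell by 0.28 on the log2 scale in FAC and was not called in either pretreated group against FAC (-0.01 and 0.11).

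Of the 10 genes of anticoagulation and fibrinolysis, 1 rose and 5 fell in FAC against Control, beside 17.5% and 19.1% of all genes tested. The gene that rose, Plg (plasminogen), measured 239, 242 and 259 CPM in Control, 279.5, 293 and 343 in FAC, 232, 233 and 220.3 in Lip-1+FAC, and 232, 212 and 207 in MT+FAC. FAC libraries stood above those of all other groups, by 0.31 on the log2 scale against Control (SE 0.07, edgeR adjusted p = 0.00219), and the changes against FAC were -0.42 with Lip-1 and -0.49 with MT. Hrg, encoding the histidine-rich glycoprotein that binds heparin and plasminogen, measured 100.3, 87.4 and 106 CPM in Control, 109, 102 and 130.0 in FAC, 59.5, 67.9 and 66.4 in Lip-1+FAC, and 62.8, 66.6 and 59.7 in MT+FAC. Control and FAC overlapped (0.21, adjusted p = 0.0729), and the pretreated libraries were all below both. The difference from FAC was -0.81 in Lip-1+FAC (SE 0.0909, adjusted p = 2.1e-06) and -0.85 in MT+FAC (SE 0.0908, adjusted p = 1.75e-06). Hrg was called higher in FAC than in Control without Control replicate 3 (0.27), without FAC replicate 2 (0.29), and under RLE scaling, DESeq2, no filter (each 0.23) and GC and length offsets (0.28). Cpb2, encoding a carboxypeptidase that protects fibrin from plasmin, was not called in FAC (0.04) and fell by 0.31 in Lip-1+FAC and by 0.33 in MT+FAC against FAC.

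The upstream sequences of the genes with the largest rises or falls are shown where the RefSeq start coincides with the annotated gene start. Each window holds the 250 bases before the RefSeq start on the sense strand, 5′ to 3′, in build GRCm38.p6, and is credited to RefSeq. Capitals mark a match to any of 5 motifs searched on both strands: part of the HNF1 site (GTTAATNA), an HNF4 core (CAAAGTNCA), STAT3 (TTCNNNGAA), AP-1 (TGANTCA) and the antioxidant response element (TGACNNNGC).
Serpind1: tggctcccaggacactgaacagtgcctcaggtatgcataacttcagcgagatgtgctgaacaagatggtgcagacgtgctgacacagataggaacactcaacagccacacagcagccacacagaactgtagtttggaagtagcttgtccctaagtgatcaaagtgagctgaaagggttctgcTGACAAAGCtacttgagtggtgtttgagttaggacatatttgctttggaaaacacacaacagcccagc
Pros1: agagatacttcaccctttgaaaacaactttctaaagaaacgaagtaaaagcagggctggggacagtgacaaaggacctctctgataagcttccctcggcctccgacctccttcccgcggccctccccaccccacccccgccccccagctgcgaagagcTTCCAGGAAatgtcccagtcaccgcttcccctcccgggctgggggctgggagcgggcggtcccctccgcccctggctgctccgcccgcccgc
Hrg: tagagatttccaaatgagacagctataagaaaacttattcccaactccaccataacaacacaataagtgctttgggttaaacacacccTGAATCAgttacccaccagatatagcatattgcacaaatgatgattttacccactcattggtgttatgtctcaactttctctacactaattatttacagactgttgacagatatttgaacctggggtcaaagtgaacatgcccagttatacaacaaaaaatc
C8a: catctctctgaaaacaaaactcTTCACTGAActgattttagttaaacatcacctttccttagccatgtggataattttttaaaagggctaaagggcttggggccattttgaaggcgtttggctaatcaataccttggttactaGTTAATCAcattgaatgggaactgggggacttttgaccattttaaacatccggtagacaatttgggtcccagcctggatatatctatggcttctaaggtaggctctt
C8g: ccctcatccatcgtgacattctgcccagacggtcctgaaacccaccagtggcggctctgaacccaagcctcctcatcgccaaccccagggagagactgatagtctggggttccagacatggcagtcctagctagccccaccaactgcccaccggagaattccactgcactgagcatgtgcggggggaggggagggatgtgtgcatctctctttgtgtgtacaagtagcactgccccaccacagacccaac
The windows lie at chr16:17331121-17331370 (plus strand), chr16:62854057-62854306 (plus), chr16:22950822-22951071 (plus), chr4:104876399-104876648 (minus) and chr2:25501720-25501969 (minus), outside the annotated exons of their gene. Serpind1 held an antioxidant response element match 68 to 60 bases before the start, Pros1 a STAT3 match at 92 to 84, Hrg an AP-1 match at 162 to 156, and C8a a STAT3 match at 228 to 220 and an HNF1 match at 107 to 100. C8g held none of these letters in its window. Over the 29 of 38 genes with a RefSeq promoter entry, HNF1 matched in 4, HNF4 in 1, STAT3 in 6, AP-1 in 3 and the antioxidant response element in 2. Among 32851 promoter windows of the same length, the shares were 2.33%, 1.19%, 7.02%, 6.75% and 10.2%. A match describes the letters and shows no binding.

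Of the 13 procoagulant factors, 3 rose and 5 fell with Lip-1 against FAC, and 3 rose and 4 fell with MT. The rises were near the 20.7% and 21.2% of all genes tested that were called higher, and 19.2% and 19.7% were called lower. In FAC against Control none of the 13 rose and 4 fell, beside 17.5% and 19.1% of all genes tested. On the log2 scale, Fgb fell by 0.38 and F9 (factor IX) by 0.37. F7 (factor VII, the partner of tissue factor) fell by 0.31 and Fga (the alpha chain of fibrinogen) by 0.26. F2, the most abundant per length, measured 2849.9, 2838 and 2824 CPM in Control, 2815, 2776 and 2558 in FAC, 2441, 2487 and 2621 in Lip-1+FAC, and 2629, 2721 and 2580.2 in MT+FAC. Its FAC libraries were just below Control, at -0.06 (SE 0.0533, edgeR adjusted p = 0.389), and F2 was not called in either pretreated group against FAC (-0.11 and -0.04). Without FAC replicate 3 it was called lower with Lip-1 (-0.15).

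The means of the fibrinogen chains were farther below Control in the pretreated groups than in FAC. Mean normalised counts of Fgb were 2660.5 CPM in Control, 2046 in FAC, 1859 with Lip-1 and 1980.3 with MT, those of Fga 797, 668, 514 and 538, and those of Fgg (the gamma chain) 540.1, 492, 375 and 375. Against FAC, Fga and Fgg fell in both pretreated groups (-0.38 and -0.39 with Lip-1, -0.31 and -0.39 with MT), and Fgb was called lower with Lip-1 (-0.14, edgeR adjusted p = 0.0463) and not called with MT (-0.05). With offsets for GC content and length, Fgb was called lower with MT as well (-0.16). F10 (factor X) and F11 (factor XI) were not called in FAC against Control (-0.14 and -0.05) and fell in both pretreated groups against FAC, by 0.46 and 0.49 with Lip-1 and by 0.31 and 0.33 with MT. F5, F9 and F7 had positive values in both, with log2 fold changes of 0.64, 0.48 and 0.23 with Lip-1, of which that of F7 was not called, and 0.45, 0.34 and 0.26 with MT, all called. F13b, encoding the carrier subunit of factor XIII, rose by 0.35 with Lip-1 (adjusted p = 0.00995) and was not called with MT (0.23). F12, Kng1 and Klkb1, the contact pathway genes, were called in none of these 3 comparisons, although F12 passed in Lip-1+FAC (0.20) and Kng1 in MT+FAC (-0.13) with offsets for GC content and length.

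The smaller of these calls were lost in some settings. Fgb with Lip-1 lost its call when any FAC or Lip-1+FAC library was left out (-0.15 to -0.11) or with the replicate block (-0.14), F7 in FAC without Control replicate 1 (-0.27), FAC replicate 1 (-0.27) or FAC replicate 2 (-0.28), F7 with MT without FAC replicate 1 (0.22) or 2 (0.24) or MT+FAC replicate 1 (0.19) or 3 (0.26), and F13b without FAC replicate 2 (0.27). With offsets for GC content and length, Fga in FAC (-0.14) and F13b with Lip-1 (0.21) lost theirs. Other values passed in some settings only. F7 was called higher with Lip-1 under the offsets (0.36), with no filter or the replicate block (both 0.22), and on leaving out replicate 3 of FAC or replicate 2 of Lip-1+FAC (both 0.29). F13b was called higher with MT under the replicate block (0.22) or without MT+FAC replicate 2 (0.30). In FAC against Control, F10 was called lower without Control replicate 2 (-0.19) and Fgg without Control replicate 3 (-0.18).

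**Figure D3:**
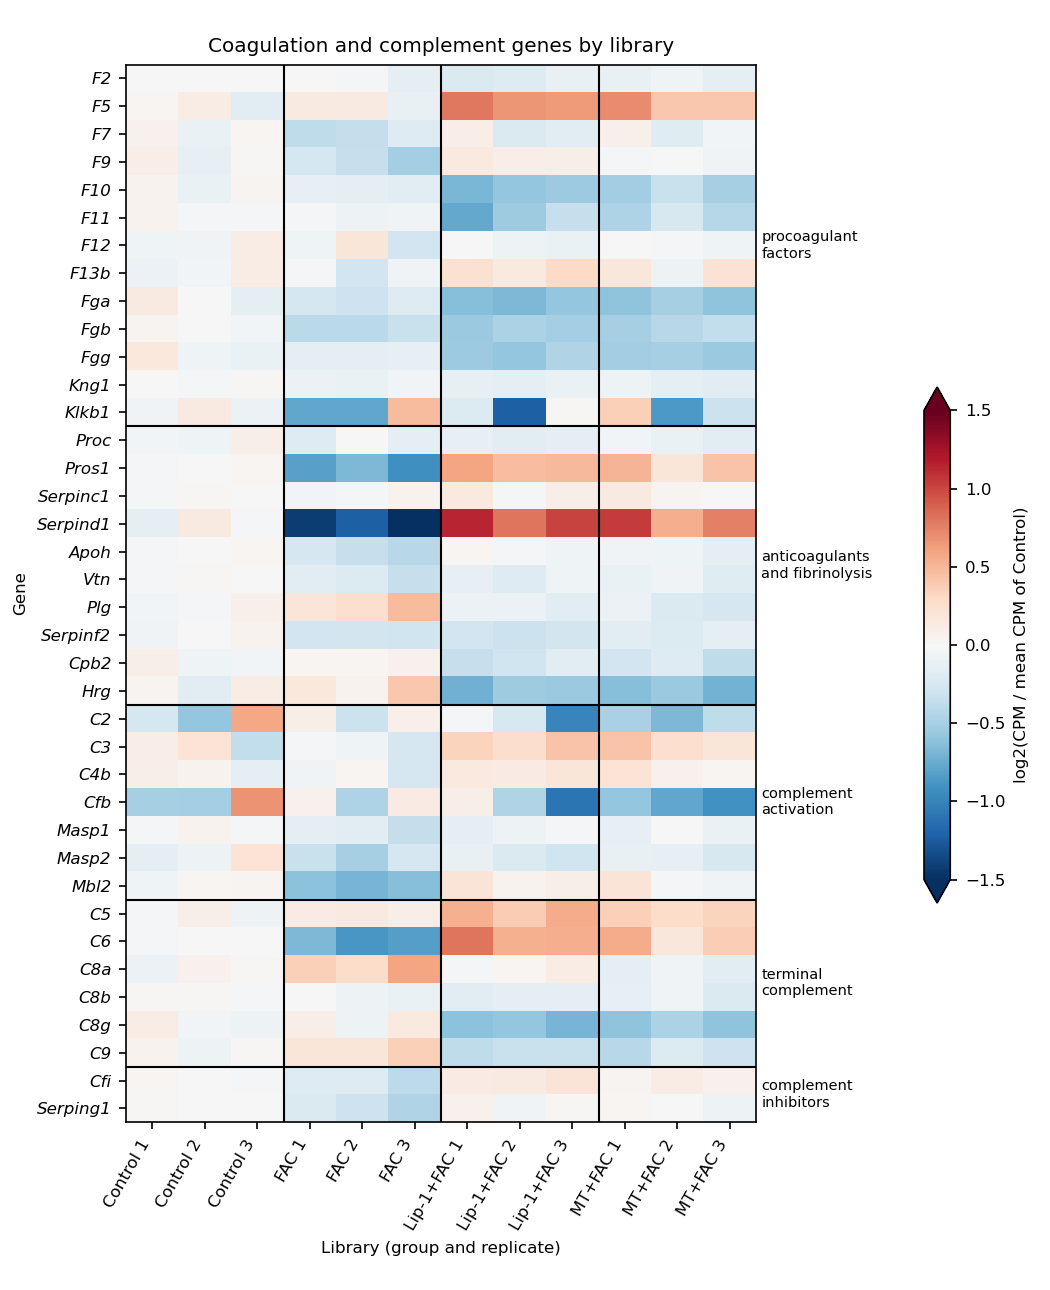
Each gene in each library as log2 of its CPM over the mean CPM of Control, by role class, with colours ending at -1.5 and 1.5. Serpind1, Pros1 and C6 are blue in the FAC libraries and red in the pretreated ones, and Fga, Fgb, Fgg, F10 and F11 are blue in the pretreated libraries.

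Among the 7 genes of complement activation, 3 fell in FAC against Control and none rose, beside 19.1% and 17.5% of all genes tested. Mbl2, encoding a mannose-binding lectin that starts the lectin pathway, had mean levels of 314 ± 12.2 CPM in Control, 200.1 ± 6.15 in FAC, 340.2 ± 18.1 with Lip-1 and 324 ± 30.9 with MT (SD, n = 3). It fell by 0.65 in FAC (SE 0.0655, edgeR adjusted p = 6.36e-07) and rose by 0.77 with Lip-1 and by 0.70 with MT against FAC. The lectin pathway proteases Masp2 and Masp1 fell by 0.36 and 0.21 in FAC and were not called in the pretreated groups against FAC, with values of 0.16 and 0.13 with Lip-1 and of 0.21 and 0.14 with MT. Masp1 lost its call in FAC without FAC replicate 3 (-0.15) or with only the 2 groups in the fit (-0.20). Masp2 was called higher with MT with no filter or the stranded columns summed (both 0.22), with only the 2 groups in the fit (0.21) and without FAC replicate 3 (0.27).

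C3 measured 3893, 4205 and 2809 CPM in Control, 3567, 3474 and 3059 in FAC, 4580.0, 4367 and 4902 in Lip-1+FAC, and 4906, 4325 and 4114 in MT+FAC. Control replicate 3 lay below every FAC library, and the difference of FAC from Control was not called (-0.11, edgeR adjusted p = 0.546). Without Control replicate 3 it was called lower (-0.27, adjusted p = 0.0168). C3 was higher in Lip-1+FAC than in FAC by 0.46 (adjusted p = 0.0145) and in MT+FAC by 0.40 (adjusted p = 0.0261). It lost these calls without FAC replicate 3 (0.39 and 0.34), Lip-1+FAC replicate 3 (0.41), FAC replicate 2 (0.43 with MT) and MT+FAC replicate 1 (0.32) or 2 (0.41), and both with no filter on low counts (0.45 and 0.41). C4b rose by 0.24 with Lip-1 (adjusted p = 0.017), a call lost without FAC replicate 3 (0.16), and was 0.19 higher with MT without a call. It was called with MT under the offsets (0.21), no filter and upper-quartile scaling (both 0.20), the replicate block (0.19), and without FAC replicate 2 (0.25) or MT+FAC replicate 3 (0.23), and lower in FAC under the offsets (-0.19). C2 and Cfb, at 85 to 299 and 66 to 241 counts per library, were called in none of these 3 comparisons, and the edgeR fit gave SEs from 0.279 to 0.345 for them. With MT against FAC both were called lower with no filter (C2 -0.45, Cfb -0.65) and with only the 2 groups in the fit (-0.47 and -0.66).

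Both complement inhibitors fell in FAC and rose in the pretreated groups against FAC. Serping1 measured 1001, 983 and 987 CPM in Control, 852, 801 and 723 in FAC, 1033, 958 and 1004 in Lip-1+FAC, and 1012, 988 and 941 in MT+FAC. FAC stood alone below the other groups, which overlapped with each other. Its log2 fold changes were -0.32 in FAC against Control (SE 0.0595, edgeR adjusted p = 0.000367), 0.33 with Lip-1 and 0.31 with MT against FAC. Cfi, encoding the protease that inactivates C3b and C4b, gave -0.26, 0.41 and 0.33, and the first of these lost its call with GC and length offsets (-0.16).

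The terminal components split by gene. C6, encoding a component that joins C5b early in the assembly of the membrane attack complex, measured 64.1, 65.0 and 65.3 CPM in Control, 40.6, 35.5 and 36.5 in FAC, 113, 93.4 and 94.5 in Lip-1+FAC, and 95.7, 72.6 and 83.7 in MT+FAC. FAC was the lowest and both pretreated groups lay above Control with no overlap. C6 fell by 0.79 in FAC (SE 0.0951, edgeR adjusted p = 6.04e-06) and rose by 1.42 with Lip-1 (SE 0.0952, adjusted p = 8.51e-09) and by 1.16 with MT (SE 0.0949, adjusted p = 1.1e-07) against FAC. C5, whose cleavage starts the assembly, was not called in FAC against Control (0.12) and rose by 0.37 with Lip-1 and by 0.20 with MT against FAC. The last call was lost without MT+FAC replicate 1 (0.18).

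Of the genes of the later components, C8a and C9 rose in FAC and fell in both pretreated groups against FAC. C8a, the alpha chain of C8, measured 66.4, 73.9 and 71.1 CPM in Control, 90.2, 85.3 and 106 in FAC, 69.0, 71.8 and 76.3 in Lip-1+FAC, and 64.3, 67.8 and 63.0 in MT+FAC. FAC stood above all other libraries, by 0.41 against Control (SE 0.077, edgeR adjusted p = 0.000427), with changes of -0.37 with Lip-1 and -0.53 with MT against FAC. C9, which forms the pore, measured 110.4, 101 and 108 CPM in Control, 121, 121 and 137 in FAC, 81.6, 84.7 and 84.8 in Lip-1+FAC, and 80.2, 92.3 and 86.4 in MT+FAC. FAC was again highest (0.24, SE 0.0665, adjusted p = 0.00782), and the pretreated groups lay below Control as well, with -0.59 and -0.55 against FAC. C8g, the gamma chain, measured 108, 97.6 and 95.04 CPM in Control, 107, 95.2 and 111 in FAC, 65.2, 66.9 and 61.8 in Lip-1+FAC, and 66.1, 72.3 and 65.7 in MT+FAC. Control and FAC overlapped, and all pretreated libraries were lower, by 0.69 with Lip-1 (SE 0.0721, adjusted p = 7.8e-07) and 0.62 with MT (SE 0.0718, adjusted p = 3.33e-06) on the log2 scale. C8b, the beta chain, measured 226, 225 and 218 CPM in Control, 222, 211 and 209 in FAC, 197, 203 and 203 in Lip-1+FAC, and 205, 215 and 191 in MT+FAC. Its Lip-1+FAC libraries lay below all FAC libraries and those of MT+FAC overlapped with them, and C8b was not called in either pretreated group against FAC (-0.09 and -0.07). The chains of C8 thus had unlike values within the same libraries.

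**Figure D4:**
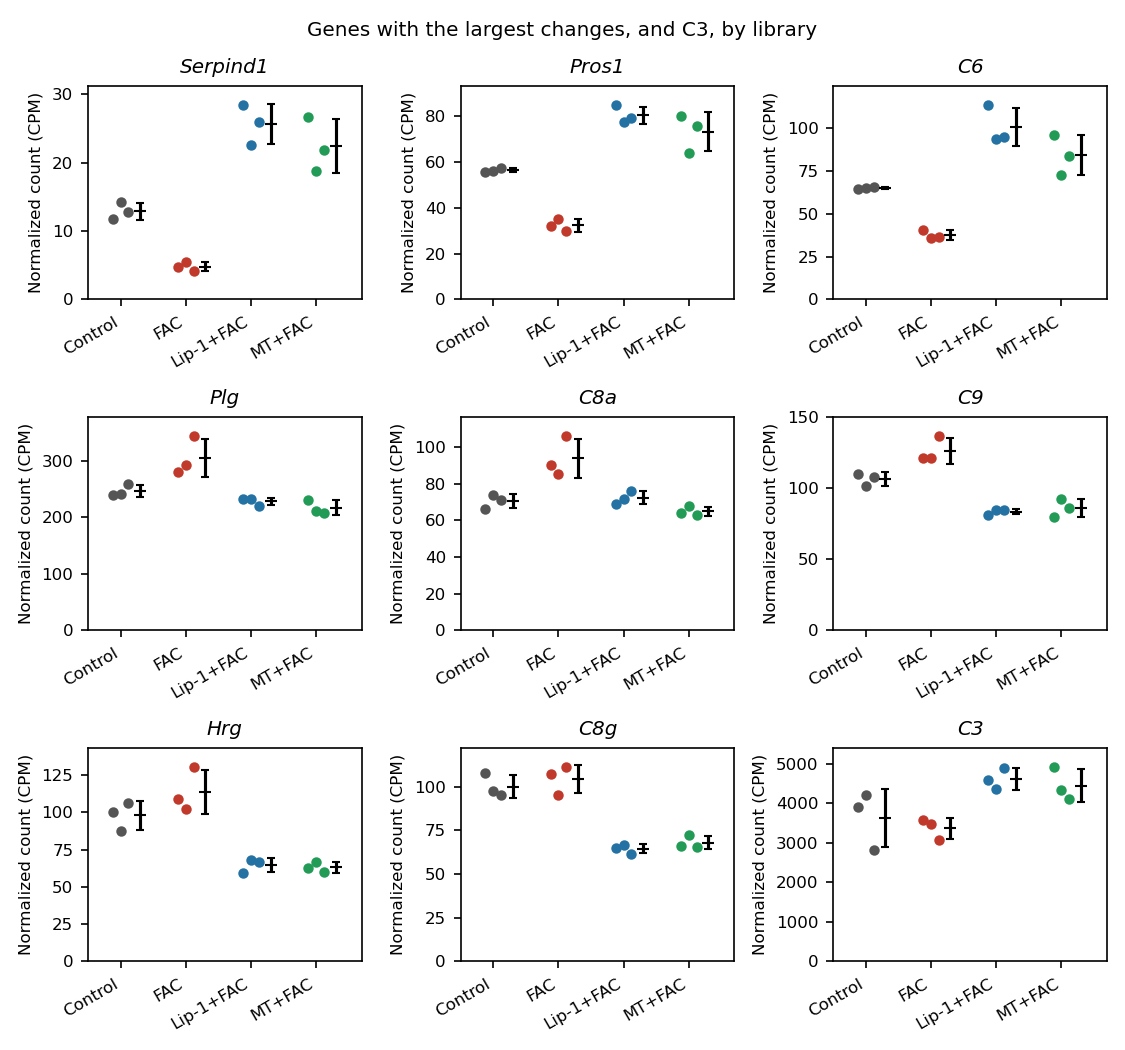
Normalised counts (CPM) of 9 genes in each library, with the mean and SD of 3 libraries per group beside the points. Serpind1, Pros1 and C6 are lowest in FAC and highest in the pretreated groups, whereas Plg, C8a and C9 are highest in FAC, and Hrg and C8g are low in the pretreated groups alone.

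Pretreated cells were also compared with Control, where scavenger and FAC change together. In Lip-1+FAC 5 of the 38 genes were higher than in Control and 12 lower, beside 15.4% and 14.8% of all genes tested. With offsets for GC content and length the split was 8 higher and 10 lower. In MT+FAC 5 were higher and 10 lower, beside 9.71% and 10.1%. Libraries did not overlap with Control for 26 of the 38 with Lip-1 and 23 with MT, as for 43.3% and 38.2% of all genes tested. The median log2 fold change was -0.11 in both, against -0.02 and -0.000906 over all genes tested. With Lip-1 it was -0.0308 under the offsets and -0.069 without replicate 3 of Control. The genes above Control were Serpind1 (0.99 and 0.80), F5 (0.70 and 0.51), C6 (0.63 and 0.37), Pros1 (0.51 and 0.38) and C5 (0.49 and 0.33), with the Lip-1+FAC value first. Those below in both were Hrg (-0.60 and -0.63), Fga (-0.63 and -0.57), C8g (-0.63 and -0.56), F10 (-0.60 and -0.45), Fgg (-0.53 and -0.53), Fgb (-0.52 and -0.43), F11 (-0.54 and -0.38), C9 (-0.35 and -0.31), Serpinf2 (-0.30 and -0.17) and Cpb2 (-0.27 and -0.28). F2 (-0.17) and C8b (-0.15) were called lower in Lip-1+FAC alone, and the difference between the groups was not called for either. The 7 activation genes and the inhibitors Cfi and Serping1 were called in neither. Of the 15 hepatocyte markers, 1 was higher and 13 lower in Lip-1+FAC than in Control, and 2 higher and 12 lower in MT+FAC, and their part in these calls was not tested.

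Some of these comparisons with Control depended on the setting. The C6 call in MT+FAC was lost without MT+FAC replicate 1 (0.27), that of C8b when any Control or Lip-1+FAC library was left out (-0.16 to -0.13) or in any setting with all libraries other than a mean CPM of at least 5 and upper-quartile scaling (-0.15 to -0.10), that of F2 without Control replicate 1 (-0.17) or Lip-1+FAC replicate 1 (-0.15) or 2 (-0.16), and that of Serpinf2 in MT+FAC without Control replicate 3, without MT+FAC replicate 2 or with no filter (each -0.15). With offsets for GC content and length, F2 was at -0.08, Serpinf2 in MT+FAC at -0.10 and Cpb2 at -0.18 in both groups, all without a call. Calls were also gained. Cfi was called higher in Lip-1+FAC under the offsets (0.20), RLE scaling, DESeq2, no filter and the stranded columns summed (each 0.16) and with only the 2 groups in the fit (0.15), beside 0.15 without a call. C3 (0.34 without a call) was called higher there under DESeq2 (0.35), a mean CPM of at least 5 (0.33), the replicate block (0.36) and the offsets (0.33), and without Control replicate 2 in both groups (0.47 and 0.41). The offsets also called Mbl2 higher in Lip-1+FAC (0.28) and Masp1 lower in both groups (-0.20 and -0.19). C4b was called higher in Lip-1+FAC with no filter (0.16), Masp2 lower there without Control replicate 1 (-0.27), and C2 and Cfb lower in MT+FAC with no filter (-0.49 and -0.72). Kng1 was called lower in both groups under DESeq2 (-0.11 and -0.12) and a mean CPM of at least 5 (-0.13 and -0.14), in Lip-1+FAC under upper-quartile scaling (-0.14) and in MT+FAC with the stranded columns summed (-0.14). Plg was called lower in MT+FAC with the stranded columns summed (-0.19) and without MT+FAC replicate 1 (-0.24).

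Between the pretreated groups no gene of the 38 was called in either direction by edgeR, and none by DESeq2, beside 0.465% of all genes tested called higher and 0.879% lower in MT+FAC. At an unadjusted p under 0.05 there were 4 genes, namely C6 (-0.26, SE 0.0923), C5 (-0.17, SE 0.0599), F10 (0.16, SE 0.0611) and Serpinf2 (0.12, SE 0.0481), named after their values were seen. Log2 fold changes of MT+FAC against Lip-1+FAC ranged from -0.34 for Cfb to 0.21 for Klkb1, with SEs from 0.0481 to 0.469. Libraries did not overlap for 6 genes, as for 19.8% of all genes tested. Serpind1 and Pros1 differed by -0.19 (SE 0.132) and -0.14 (SE 0.0818). A missing call does not show that both scavengers had the same effect.

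As a share of all gene-assigned counts, the 38 genes took 2.39% ± 0.0994 in Control, 2.11% ± 0.0770 in FAC, 2.25% ± 0.0488 with Lip-1 and 2.29% ± 0.0781 with MT (SD, n = 3). The clotting and fibrinolysis genes took 1.58% ± 0.0141, 1.39% ± 0.0270, 1.33% ± 0.0189 and 1.39% ± 0.0275 in the same order. The complement genes took 0.807% ± 0.0901, 0.717% ± 0.0505, 0.919% ± 0.0306 and 0.900% ± 0.0593. The clotting share was thus higher in every Control library than in any other, whereas the mean complement share was highest in the pretreated groups. C3 had the most counts of the 15 complement genes, with means of 3636 CPM in Control, 4616 with Lip-1 and 4448 with MT. It was not called against Control in either. Of the 15, edgeR called 2 higher and 3 lower than Control with Lip-1, and 2 and 2 with MT. Of all genes tested, 15.4% and 14.8% were called with Lip-1 and 9.71% and 10.1% with MT. The differences in complement share from Control varied with the library left out, from -0.141 to -0.0552 percentage points in FAC (-0.0896 with all libraries), 0.0607 to 0.146 with Lip-1 (0.112) and 0.0422 to 0.128 with MT (0.0932). For the pretreated groups the smallest values came without replicate 3 of Control, as did the value of FAC farthest from 0. With 3 libraries against 3 an exact two-sided permutation test cannot give a p below 0.1. The clotting share reached that value for each other group against Control and for Lip-1+FAC against FAC, and the complement share for Lip-1+FAC against Control and for both pretreated groups against FAC (adjusted p = 0.18 over 18 tests).

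**Figure D5:**
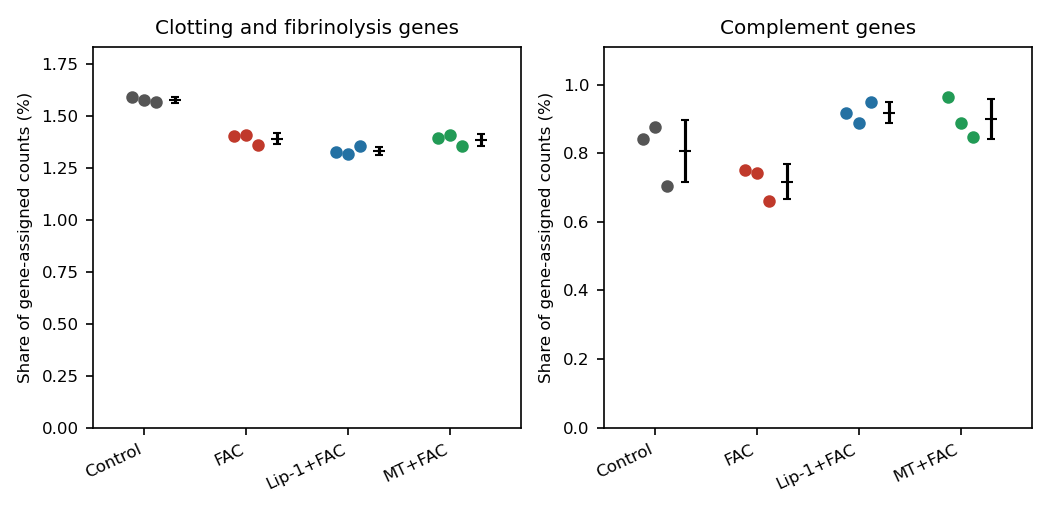
Share of gene-assigned counts (%) taken by the 23 clotting and fibrinolysis genes (left) and the 15 complement genes (right) in each library, with mean and SD of 3 libraries per group. The clotting share is 1.58% in Control and 1.33% to 1.39% elsewhere, and the complement share is lowest in FAC at 0.717%.

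Other genes of these pathways were examined from lists, whose counts are to be read against the shares of all genes tested given above. Of 19 further clotting and fibrinolysis genes tested, 7 rose and 5 fell in FAC against Control, 5 rose and 7 fell in Lip-1+FAC against FAC, and 7 rose and 8 fell in MT+FAC against FAC. Procr (the protein C receptor, 2.79), Plat (tissue plasminogen activator, 1.59) and Plaur (the urokinase receptor, 1.14) rose most in FAC, with Procr at only 0.237 CPM in Control and 1.67 in FAC on average. F3 (tissue factor) and Tgm2 (tissue transglutaminase) fell by 1.48 and 1.12 with Lip-1 and by 0.77 and 0.67 with MT against FAC, and were called higher in MT+FAC than in Lip-1+FAC (0.70 and 0.46, edgeR adjusted p = 0.043 and 0.0313).

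Factors II, VII, IX and X and proteins C and S need a vitamin K-dependent carboxylation. Factors V and VIII are carried out of the endoplasmic reticulum by a cargo receptor. Of 7 genes listed for these steps, 1 rose and 4 fell in FAC against Control, 6 rose with Lip-1 and 5 with MT against FAC, and none fell. Ggcx, the carboxylase, had means of 35.6 ± 3.47 CPM in Control, 23.4 ± 2.52 in FAC, 44.7 ± 3.58 with Lip-1 and 46.7 ± 2.70 with MT (SD, n = 3), with log2 fold changes of -0.60, 0.93 and 0.99. Mcfd2, a subunit of the receptor, gave -0.51, 0.49 and 0.55, and Nqo1, a quinone reductase, 0.43, 1.42 and 1.11. Of the genes among the 38 that encode carboxylated proteins, F9 and Pros1 rose in both pretreated groups against FAC, F7 rose with MT, F10 fell in both, and F2 and Proc were not called. Proz (protein Z), a further gene of this kind, gave -0.66 in FAC against Control, 0.62 with Lip-1 and 0.67 with MT against FAC, all called.

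Of 25 further complement genes tested, none rose and 9 fell in FAC against Control, 11 rose and 2 fell with Lip-1, and 10 rose and 1 fell with MT against FAC. Cpn2, a subunit of the carboxypeptidase that inactivates anaphylatoxins, gave -1.54, 1.08 and 1.30, and C4bp, the binding protein that restrains C4b, gave -0.56, 1.04 and 0.94. Cfhr2, of the factor H family, gave -0.71, 0.70 and 0.52. Cd55, a membrane inhibitor of the convertases, rose by 1.92 and 1.43 against FAC from 0.239 CPM.

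Of 17 liver transcription factors, 1 rose and 5 fell in FAC against Control, 2 rose and 6 fell with Lip-1, and 4 rose and 4 fell with MT against FAC, the last close to the 21.2% and 19.7% of all genes tested. Nr1h4, encoding the bile acid receptor FXR, gave -1.49, 0.93 and 0.91, with means of 77.0 CPM in Control, 27.4 in FAC, 52.4 with Lip-1 and 51.6 with MT. Cebpb, a factor of the acute phase response, was not called in FAC (0.45) and gave -0.91 and -0.92 against FAC. Of 5 genes of interleukin 6 and STAT3 signalling, which drives fibrinogen genes in inflammation, Il6st (0.46) and Stat3 (0.19) rose in FAC and none fell. With Lip-1, 2 rose and 1 fell against FAC, and with MT 1 rose and 1 fell. Of 15 acute phase proteins, 1 rose and 8 fell in FAC, and 7 rose and 5 fell in each pretreated group against FAC. Saa2 and Saa1 fell by 1.67 and 1.40 with Lip-1 and by 1.49 and 1.31 with MT, while Cp (ceruloplasmin) rose by 1.27 and 1.17.

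Some markers of other liver cells differed between the groups, and the counts that follow stand beside 17.5% of all genes tested called higher and 19.1% lower in FAC, 20.7% and 19.2% with Lip-1, and 21.2% and 19.7% with MT. Of 6 cholangiocyte markers tested, 4 rose and 1 fell in FAC against Control, and 4 fell and 1 rose in each pretreated group against FAC. The list summed to 81.3 to 93.5 CPM in Control, 112 to 143.4 in FAC, 127 to 138 with Lip-1 and 123 to 163 with MT. Sox9 averaged 17.4, 53.4, 12.01 and 15.05 CPM. Spp1 averaged 40.7, 43.6, 101.3 and 102.6 CPM in the same order and was the marker that rose with each scavenger against FAC, whereas Krt7 and Epcam stayed at or below 1.26 CPM in each group mean. The macrophage list summed to 232 to 266 CPM in Control, 296 to 330 in FAC, 125 to 153 with Lip-1 and 149.4 to 183 with MT, nearly all of it Cd68, with Adgre1 at 0.718 to 1.20 CPM and Clec4f at 0.499 to 1.17 CPM in group means. Of 11 such genes tested, 1 rose and 1 fell in FAC, 1 rose and 2 fell with Lip-1, and 2 rose and 1 fell with MT. The stellate and fibroblast list summed to 37.9 to 43.3 CPM in Control, 44.2 to 52.1 in FAC, 25.6 to 29.5 with Lip-1 and 29.1 to 31.2 with MT, with no overlap of FAC or Control with another group. Of its 8 genes tested, 1 rose and 1 fell in FAC, and none rose and 2 fell in each pretreated group against FAC. Reln averaged 7.45 CPM in Control, 16.04 in FAC, 4.53 with Lip-1 and 5.23 with MT, and Col1a1 was at or below 0.872 CPM in group means. The endothelial list summed to 42.3 to 43.6 CPM in Control, 40.4 to 42.9 in FAC, 34.9 to 35.04 with Lip-1 and 33.9 to 38.9 with MT. Of its 10 genes tested, none were called in FAC by edgeR (1, Tek, had an unadjusted p under 0.05), and 1 rose and 1 fell in each pretreated group against FAC. Stab2 averaged 28.2, 26.5, 17.9 and 19.2 CPM in the same order of groups, and Pecam1 was at or below 3.19 CPM in group means. Of the 15 hepatocyte markers, 2 rose and 5 fell in FAC against Control, and 2 rose and 10 fell in each pretreated group against FAC. The part of these markers in the changes of the coagulation and complement genes was not tested.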

How the data were processed

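Total RNA of 12 libraries of cultured primary mouse hepatocytes was sequenced after SMART-Seq v4 amplification and Nextera XT library preparation, per the labels' protocols. No molecular identifiers are mentioned, so reads are not independent molecules. The values deposited are raw read counts per gene, not normalised by the authors. STAR and the build GRCm38 are named in the submitters' processing notes, and the aligner version and annotation are not given in the sources used here. The unstranded count column was used. Lines that name no gene stayed out of library sizes and tests, leaving 75.8% to 81.2% of the listed reads in use. Of 55487 identifiers, 55227 matched the GENCODE M21 gene models (GRCm38), which gave exon lengths and positions. Replicates differed by more than counting noise, and none was merged.

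Counts were tested in edgeR 4.0.16 (R 4.3.3) with its quasi-likelihood test (filterByExpr, TMM scaling, robust dispersions, 4 group means over 12 libraries, no covariate). Two-sided p-values were corrected over 13535 genes after Benjamini and Hochberg, with calls made at an adjusted p under 0.05. All 38 genes passed the filter. SEs were derived from each fold change and F statistic. TMM factors ran from 0.989 to 1.01, and the common biological coefficient of variation was 9.71%. In simulated data for FAC against Control, run on 13270 genes with 200 changed by a log2 fold change of 1, 89.5% of these were recovered and 5.79% of calls were false. The simulated counts followed the trended spread, with no spread particular to each gene. Far fewer genes changed than the 4960 called in the data, so that these rates may not carry over. CPM are TMM-scaled, and RPKM divide them by the exon union length. Copies were searched with blastn at an identity of at least 95% over at least 200 bases.

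The 38 genes and all lists were chosen with earlier results of these data known. Values in every library are given for the 3 largest called rises and falls among the 38 in each of the 3 main comparisons and for the highest level per length in each role class. From other lists, the 3 largest changes in a comparison and the defining markers may be named. Proz, Trf, Spp1, Reln, Stab2 and Tek were added to the text after their values were seen. Alternatives changed scaling (RLE, upper quartile), filter (none, or a mean CPM of at least 5), test (DESeq2 1.42.0), libraries in the fit, the replicate block, the count column (stranded columns summed), GC and length offsets, the size of a call, the total of the shares, and left out each replicate in turn.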

Additional observations from a re-analysis of the deposited data

How the results depend on the processing

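No called value of the 38 genes changed sign in any setting, whereas the uncalled values of F12 (-0.01) and Proc (-0.03) in Lip-1+FAC against FAC became 0.20 each with GC and length offsets, where both were called. Requiring a change of at least 1 on the log2 scale left 0 genes higher and 1 lower in FAC against Control, 3 higher and 0 lower in each pretreated group against FAC, and 0 in both directions in each against Control. The median in FAC against Control was -0.10 with RLE scaling, DESeq2 or only the 2 groups in the fit, -0.13 with upper-quartile scaling, and -0.18 to -0.13 when a library was left out. The median in Lip-1+FAC against FAC was 0.071 with the offsets and -0.0214 to 0.0668 when a library was left out, and in MT+FAC against FAC 0.00765 to 0.0991. In Lip-1+FAC against Control the offsets gave 8 genes higher and a median of -0.0308, with -0.124 to -0.069 when a library was left out. Leaving out a library gave 3 to 4 genes higher and 14 to 17 lower in FAC against Control, 12 to 14 and 10 to 11 in Lip-1+FAC, and 9 to 12 and 10 in MT+FAC against FAC. With 1 library of a group left out, the remaining ones share the spread of all groups. The clotting share in Lip-1+FAC less Control was -0.224 points with the stranded columns summed, against -0.246. Over all genes, 182 were called between the pretreated groups, 477 with no filter, 465 with DESeq2, 312 with 2 groups in the fit and 74 to 156 when a library was left out. The causes of these shifts were not tested. No sign of pairing by replicate number was seen, although 3 libraries per group are too few to show that there was none. Deviations of libraries with the same number correlated at -0.249 to 0.164, over 0.1 in 3 of 18 pairs, and 4 of 12 libraries correlated best with their own number. With the replicate block, 14 genes were higher and 10 lower in Lip-1+FAC against FAC, 14 and 10 in MT+FAC against FAC, and 3 and 15 in FAC against Control, and no count moved by more than 1.5 times. Among single calls of the 38 genes, the offsets ended 8 and added 16 over 6 comparisons, and the other settings with all libraries ended 0 to 4 and added 2 to 10. Klkb1, C2 and Cfb had the fewest counts and the largest SEs of the 38.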
